A study of Mus musculus with 96 samples.

Results

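The transmitter phenotype of single neurons in the lateral superior olive (LSO), an auditory brainstem nucleus, was examined through 5 genes for the making, storage and uptake of GABA and glycine: Gad1|GAD67, Gad2|GAD65, Slc32a1|VGAT, Slc6a5|GlyT2 and Slc6a9|GlyT1. They were chosen by name, and each of the 5 symbols matched 1 of the 38887 genes in the expression table. Gad2 was detected more often in 1 of the 2 main neuron classes than in the other. It was detected in 20 of 28 lateral olivocochlear neurons (LOCs; 71.4%), 13 of 52 principal LSO neurons (pLSOs; 25%) and 3 of 8 negative controls (37.5%). Above the highest control value of 28 TPM were 9 of 28 LOCs and 3 of 52 pLSOs. The 6 highest values, between 151 and 439 TPM, were all in LOCs. Slc6a5 was detected in 5 of 11 pLSOs with sustained firing (45.5%) and in 2 of 41 pLSOs with onset firing (4.88%). Above its highest control value of 1 TPM were 3 and 2 of these neurons. Slc32a1 and Slc6a9 were each detected in 2 of 80 neurons, and no neuron held Gad1, Gad2, Slc32a1 and Slc6a5 together.

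GABA is made from glutamate by the glutamate decarboxylases GAD67 and GAD65, and the vesicular transporter VGAT (also VIAAT) loads both GABA and glycine into synaptic vesicles. GlyT2 in the plasma membrane of glycinergic neurons takes up glycine and so keeps their vesicles supplied, whereas GlyT1 clears glycine from the extracellular space and is best known from glia. pLSOs send glutamatergic and glycinergic axons to higher auditory centres, and LOCs send efferent axons to the cochlea that use acetylcholine together with other transmitters and peptides.

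Neurons were recorded in acute brainstem slices of C57BL/6J mice of both sexes at postnatal days 10 to 12, with no treatment, and the cytoplasm drawn into the patch pipette gave 1 library per neuron. Groups were set by the firing pattern of the label: Onset and Sustained firing for pLSOs, and delayed firing for LOCs. After 8 of 96 libraries had been left out, 41 Onset and 11 Sustained neurons, 28 LOCs and 8 negative controls remained. A negative control came from a pipette that had touched the slice without drawing in a neuron. The labels name no animal, so each group counted as 1 sample, and no test between groups could be made. Shares are given with exact 95% binomial intervals (Clopper-Pearson), and these describe counting error and nothing else.

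Values are TPM (transcript abundance scaled for gene length and library size), listed as whole numbers, and a gene was counted as detected at 1 TPM or more. A value below 0.5 TPM would thus be listed as 0. The table holds no read number per library, so the reads behind a single value cannot be given. The median number of detected genes was 2488 in Onset neurons, 2618 in Sustained neurons, 2394 in LOCs and 821 in the negative controls. The typical level of a gene also depended on its place in the table: among the 501 genes around each member, the median of the mean TPM over detected genes was 11.3 near Gad2, 5.55 near Slc6a9, 2.07 near Slc32a1, 2.04 near Slc6a5 and 1.05 near Gad1. Levels were therefore compared between neurons for 1 gene at a time. Detection at 1 TPM depended on place as well. Of the 501 genes around each, 319 near Gad2 and 91 near Gad1 were detected in at least 5% of neurons. Detection counts of different genes are thus not comparable. Summed levels of marker lists rest mostly on the genes of larger scale.

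Marker genes were set beside the labels. Snap25, a neuronal synapse gene, was detected in all 52 pLSOs, in 27 of 28 LOCs and in 7 of 8 controls, and of 6 neuron markers only Syt1 differed by 1 or more between the classes, being higher in pLSOs (1.97). All 3 principal neuron markers (Spp1, Kcnh7 and Slc17a6) were higher in pLSOs. All 4 LOC markers (Calca, Ucn, Isl1 and Chat) were higher in LOCs, and Ucn, Isl1 and Chat were detected in 0 of 52 pLSOs. The study had reported all of these markers but Chat as differing between clusters of these same neurons. They are thus no independent check of the labels. Among the 28 LOCs, 2 held neither Calca, which encodes the peptide CGRP, nor Ucn, which encodes urocortin. Of these 2 libraries, 1 held 307 TPM of Slc17a6|vGLUT2, the vesicular glutamate transporter, and the other held 903 TPM of Gata3. Shares in LOCs are given below with and without this pair where they differ most. Calca was also detected in 15 of 52 pLSOs and in 5 of 8 negative controls, so that low values of a LOC gene occurred outside LOCs.

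**Figure D1:**
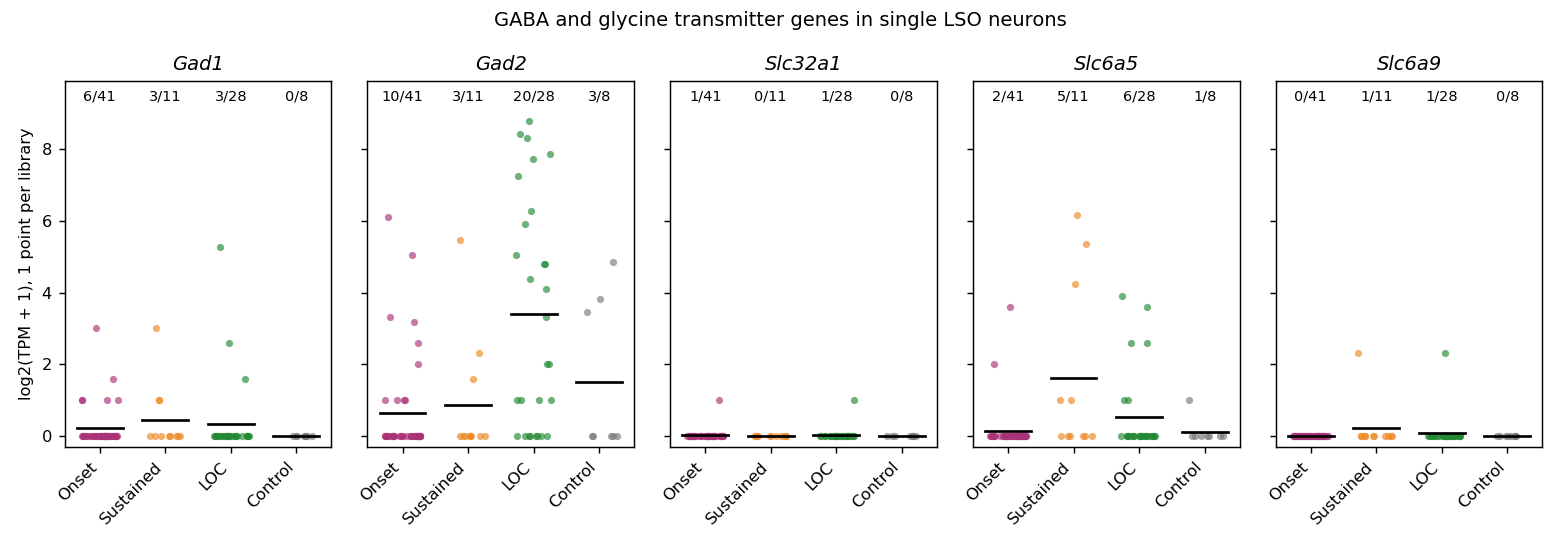
Values of the 5 genes in single libraries, as log2(TPM + 1) on the vertical axis, with 1 point per library, a black line at the group mean and the number of libraries at 1 TPM or more printed above each group. In the panel of Gad2, only LOCs held values above 100 TPM, and 20 of 28 LOCs held the gene. Heights are not compared between panels.

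Gad1 encodes GAD67, the decarboxylase that supplies most GABA for metabolism and transmission. It lies on chromosome 2 at 70553072 to 70602014 of the plus strand (GRCm38, ENSMUSG00000070880). It was detected in 12 of 80 neurons (15%). In Onset neurons the 6 positive values were 7, 2, 1, 1, 1 and 1 TPM, and in Sustained neurons the 3 positive values were 7, 1 and 1 TPM. The LOCs had 3 positive values of 38, 5 and 2 TPM, and the 8 negative controls were all at 0, which allows a share of up to 37.5%.

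The share of neurons with Gad1 was 14.6% in Onset neurons (5.57 to 29.2%), 27.3% in Sustained neurons (6.02 to 61.0%) and 10.7% in LOCs (2.27 to 28.2%). These intervals overlap widely. The mean was 1.61 TPM in LOCs, 0.818 TPM in Sustained neurons and 0.317 TPM in Onset neurons. Each of these means rested largely on 1 neuron, and without the highest neuron of each group they were 0.259, 0.2 and 0.15 TPM. The difference of mean log2(TPM + 1) was -0.08 for pLSO minus LOC and -0.25 for Onset minus Sustained, where the medians over all genes tested were 0.07 and -0.07.

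Gad2 encodes GAD65, the decarboxylase that is anchored to synaptic vesicles. It lies on chromosome 2 at 22622205 to 22693874 of the plus strand (ENSMUSG00000026787). In LOCs its values ran from 0 to 439 TPM with a median of 6 TPM, and the mean was 70.1 ± 122 TPM (SD over 28 neurons). The 20 positive values were 439, 340, 316, 230, 212, 151, 76, 59, 32, 27, 27, 20, 16, 9, 3, 3, 1, 1, 1 and 1 TPM. LOCs thus spread over the whole range: 8 were at 0, 7 lay between 1 and 9 TPM, 6 between 16 and 59 TPM, 1 was at 76 TPM and 6 were above 100 TPM.

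In Onset neurons the 10 positive values of Gad2 were 68, 32, 9, 8, 5, 3, 1, 1, 1 and 1 TPM, with a mean of 3.15 TPM that was 1.53 TPM without the highest neuron. In Sustained neurons the 3 positive values were 43, 4 and 2 TPM, with a mean of 4.46 TPM that was 0.6 TPM without the highest neuron. The negative controls held 28, 13 and 10 TPM in 3 of 8 libraries and 0 in the rest, with a mean of 6.38 TPM. The groups overlapped at the low end, where 21 LOCs were at or below the highest pLSO value of 68 TPM.

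The share of neurons with Gad2 was 71.4% in LOCs (51.3 to 86.8%) and 25% in pLSOs (14.0 to 38.95%). These intervals of counting error do not overlap, which is no test between the classes. Without the pair of LOCs that lacked Calca and Ucn the share in LOCs was 76.9% (20 of 26, 56.4 to 91.0%). Onset neurons (24.4%) and Sustained neurons (27.3%) lay close together. The negative controls stood at 37.5% (8.52 to 75.5%), so the share in pLSOs did not exceed that in the controls and is not read as expression or as a property of pLSOs. Above the highest control value of 28 TPM were 9 of 28 LOCs (32.1%, 15.9 to 52.4%), 2 of 41 Onset neurons and 1 of 11 Sustained neurons.

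The control with 28 TPM of Gad2 also held 315 TPM of Calca and 6 TPM of Ucn. The control with 13 TPM held neither, and the one with 10 TPM held 6 TPM of Calca and no Ucn. Of the 13 pLSOs with Gad2, 5 held Calca, and none held Ucn. The part that transcripts from outside the recorded neuron had in these values was not tested.

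The difference of mean log2(TPM + 1) in Gad2 was -2.71 for pLSO minus LOC (0.68 against 3.39), slightly larger than the spread between neurons of 1 class (pooled SD 2.48). This was rank 57 from the LOC end of the 10319 genes detected in at least 5% of neurons. A difference of at least 1 in favour of LOCs was found for 4.68% of these genes, and for Gad2 alone among the 3 members that passed this filter, while Gad1 (-0.08) and Slc6a5 (-0.07) lay near the middle of all genes. Since the level of a gene depended on its place, this rank and these calls do not compare genes on 1 scale. The study had already reported Gad2 as higher in the LOC cluster of these same neurons. Its rank is thus no independent result. A share at least 25 points higher in LOCs was found for 1.80% of genes, among them Gad2 with -46.4 points for pLSO minus LOC. In the opposite direction, 6.99% of genes were at least 1 higher in pLSOs and 3.06% had a share at least 25 points higher, and 0 of the 3 members were among either. By the number of detected genes, Gad2 was found in 10 of 14 LOCs with fewer genes than the class median and in 10 of 14 with the median or more.

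Of 5 oligodendrocyte markers, 1 was also at least 1 higher in LOCs, namely Mbp (-1.02), which encodes a myelin protein. The summed level of the 5 markers ran from 0 to 12405 TPM with a median of 264 TPM in Onset neurons, from 7 to 6431 TPM with a median of 522 TPM in Sustained neurons, and from 1 to 24108 TPM with a median of 994.5 TPM in LOCs. It was highest in the controls, with a median of 2812 TPM. The myelin gene Mog was detected in 3 of 28 LOCs and 4 of 52 pLSOs, and Mbp in 28 LOCs and 44 pLSOs. The part of these markers in the difference in Gad2 was not tested. None of the astrocyte, microglia and endothelium markers that passed the filter (7 of 8, 5 of 6 and 1 of 3) differed by 1 or more between pLSOs and LOCs.

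**Figure D2:**
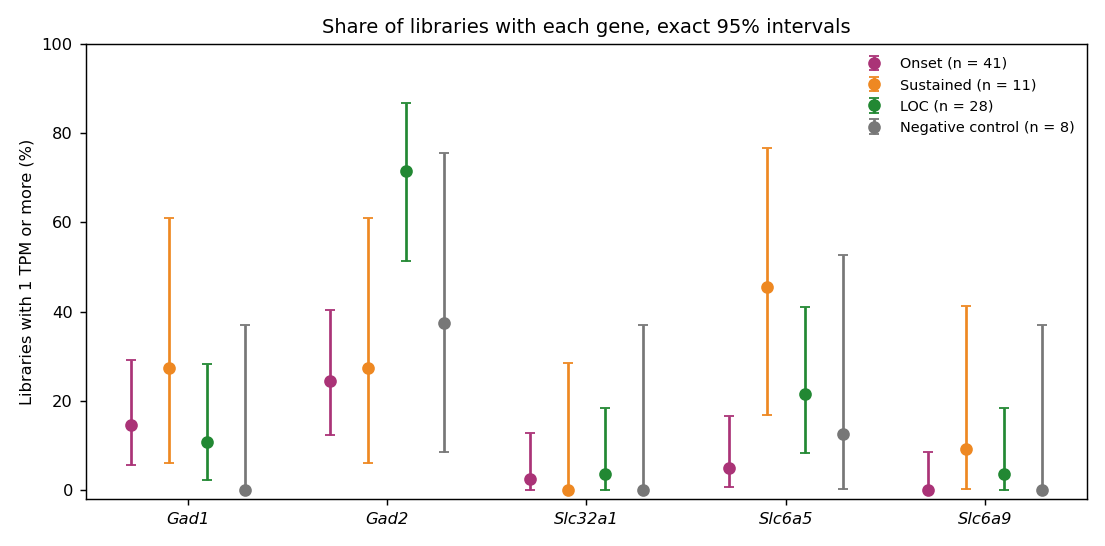
Share of libraries with 1 TPM or more (vertical axis, percent) for each gene and group, with exact 95% intervals as bars. The interval of Gad2 in LOCs (51.3 to 86.8%) lies above that of Onset neurons (12.4 to 40.3%) but overlaps that of the 8 negative controls.

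Slc32a1 encodes VGAT, the vesicular transporter shared by GABA and glycine. It lies on chromosome 2 at 158610767 to 158615748 of the plus strand (ENSMUSG00000037771). It was listed at 1 TPM in 1 Onset neuron and 1 LOC and at 0 in the other 78 neurons, a share of 2.5% (0.304 to 8.74%). For the 11 Sustained neurons, 0 detections allow a share of up to 27.3%, and for the 8 controls up to 37.5%. Of its 2797 exon bases, 697 are shared with the antisense gene Gm14205, which was detected in no neuron.

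Slc6a5 encodes GlyT2, the customary marker of glycinergic neurons. It lies on chromosome 7 at 49910146 to 49963856 of the plus strand (ENSMUSG00000039728). The 5 positive values in Sustained neurons were 70, 40, 18, 1 and 1 TPM, whereas the 2 in Onset neurons were 11 and 3 TPM. The 6 in LOCs were 14, 11, 5, 5, 1 and 1 TPM, and 1 of 8 negative controls held 1 TPM. The 3 highest values were thus all in Sustained neurons, and the remaining positive values of the 3 groups overlapped.

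The share of neurons with Slc6a5 was 45.5% in Sustained neurons (16.8 to 76.6%), 21.4% in LOCs (8.30 to 40.95%), 4.88% in Onset neurons (0.596 to 16.5%) and 12.5% in the controls. The intervals of Sustained and Onset neurons did not overlap, by a narrow margin, and each overlapped that of the LOCs. Such intervals describe counting error and are no test between groups. With all libraries grouped by label, those of Sustained and Onset neurons did overlap (Onset 3 of 44, 1.43 to 18.7%, and Sustained 5 of 12, 15.2 to 72.3%). At values above the highest control, 3 of 11 Sustained neurons (27.3%), 4 of 28 LOCs (14.3%) and 2 of 41 Onset neurons (4.88%) remained, and the interval of the Sustained neurons (6.02 to 61.0%) then overlapped that of the Onset neurons (0.596 to 16.5%). The mean in Sustained neurons was 11.8 ± 23 TPM and fell to 6 TPM without the highest neuron. In Onset neurons it was 0.342 ± 1.77 TPM, and 0.075 TPM without the highest neuron.

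For Onset minus Sustained, the difference of mean log2(TPM + 1) in Slc6a5 was -1.48 (0.14 against 1.61), below the pooled SD between neurons of 1.76. A difference of at least 1 in favour of Sustained neurons was found for 10.3% of the genes tested, and for 1 of the 3 members that passed the filter. A share at least 25 points higher in Sustained neurons was found for 6.43% of genes, among them Slc6a5 with -40.6 points for Onset minus Sustained. Of the 3 members, 0 were higher in Onset neurons by such amounts, where 4.78% of genes passed on the log2 scale and 1.57% passed by share. Differences in favour of Sustained neurons were thus common among all genes, and a class of 11 neurons gives wide intervals. Why more genes were higher in Sustained than in Onset neurons was not tested. Slc6a5 was detected in 2 of 5 Sustained neurons with fewer genes than the class median and in 3 of 6 of the others. In Onset neurons it was detected in 0 of 20 and 2 of 21. The Sustained neurons with 70, 40 and 18 TPM of Slc6a5 had 1969, 6276 and 4751 detected genes. No Onset neuron had more than 4022. The part of library depth in the difference in Slc6a5 was not tested.

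Between the same groups, 3 of the 6 neuron markers differed by at least 1, against 15.1% of all genes in either direction and 10.3% towards Sustained neurons. Stmn2 (1.44) and Snap25 (1.16) were higher in Onset neurons, and Rbfox3 (-2.03) was higher in Sustained neurons. Of the 5 microglia markers that passed the filter, 3 were higher in Sustained neurons by at least 1. These were P2ry12, C1qa and C1qb, at differences of -1.06, -1.39 and -1.27. The summed level of the 6 microglia markers ran from 0 to 1782 TPM with a median of 0 TPM in Onset neurons, and from 0 to 1221 TPM with a median of 12 TPM in Sustained neurons. P2ry12, C1qa and C1qb were detected in 4, 5 and 6 of 11 Sustained neurons and in 8, 7 and 11 of 41 Onset neurons. Cx3cr1, Tmem119 and Csf1r were detected in 1, 1 and 2 Sustained neurons and in 3, 2 and 9 Onset neurons. Of the 7 astrocyte markers that passed the filter, Slc1a3 (-1.49) and Aldoc (-1.12) were higher in Sustained neurons, as was Cnp (-1.53) among the 5 oligodendrocyte markers. The part of these markers in the difference in Slc6a5 was not tested.

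**Figure D3:**
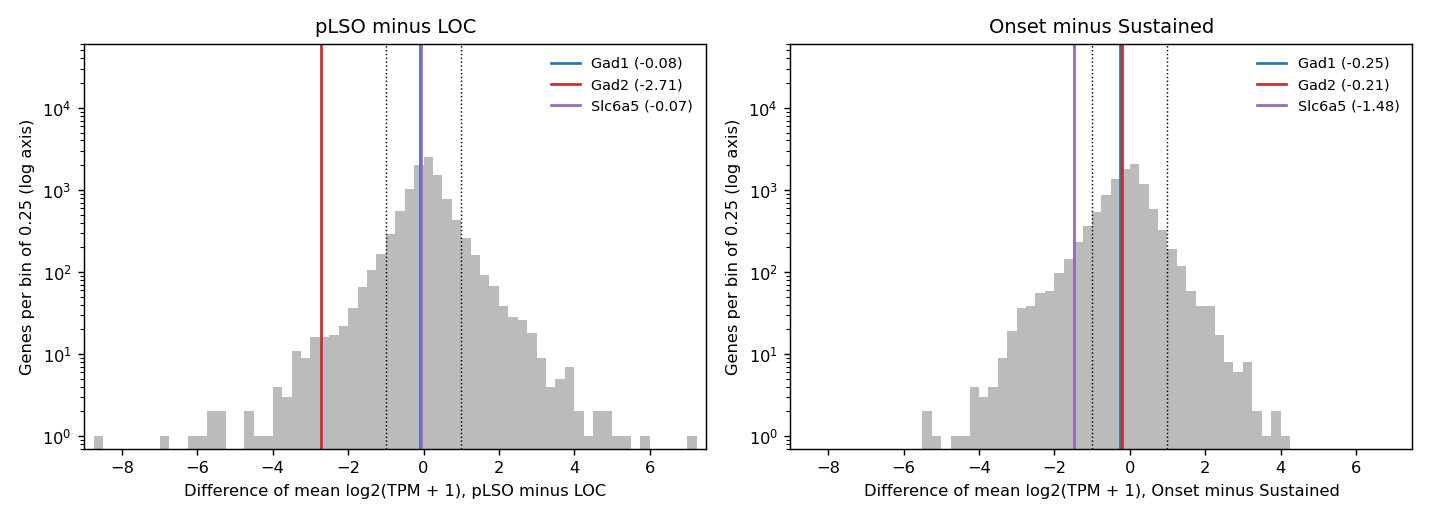
Number of genes (vertical log axis) by difference of mean log2(TPM + 1) in bins of 0.25, for pLSO minus LOC on the left and Onset minus Sustained on the right, with dotted lines at differences of 1 in either direction. Gad2 lies in the lower tail on the left (-2.71), Slc6a5 beyond the dotted line on the right (-1.48), and the other member values lie within the main body of genes.

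Slc6a9 encodes GlyT1. It lies on chromosome 4 at 117834506 to 117875198 of the plus strand (ENSMUSG00000028542). It was listed at 4 TPM in 1 Sustained neuron and in 1 LOC and at 0 elsewhere. For the 41 Onset neurons, 0 detections allow a share of up to 7.32%. Of its 5141 exon bases, 30.3% are shared with genes on the opposite strand (Gm17114, Ccdc24 and B4galt2), and no source states whether strand was used in counting.

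Co-detection was counted over Gad1, Gad2, Slc32a1 and Slc6a5 in each neuron. At least 1 of the 4 genes was detected in 23 of 28 LOCs (82.1%, 63.1 to 93.9%), in 7 of 11 Sustained neurons (63.6%, 30.8 to 89.1%) and in 15 of 41 Onset neurons (36.6%, 22.1 to 53.1%). Among the negative controls it was 3 of 8. At least 2 genes were detected in 7 LOCs (25%, 10.7 to 44.9%), 3 Sustained neurons (27.3%, 6.02 to 61.0%), 4 Onset neurons (9.76%, 2.72 to 23.1%) and 1 of 8 controls. These intervals overlap.

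In LOCs, Gad2 alone was the most frequent state, with 14 of 28 neurons, followed by none of the 4 genes in 5 neurons and Gad2 with Slc6a5 in 4 neurons. The remaining 5 LOCs held Gad1 alone, Slc6a5 alone, Gad1 with Slc6a5, Gad1 with Gad2, and Gad2 with Slc32a1, in 1 neuron each. In the 4 LOCs with Gad2 and Slc6a5, Gad2 was at 340, 59, 27 and 16 TPM, and Slc6a5 was at 14, 5, 1 and 1 TPM in the same order. The LOC with the highest Gad1, 38 TPM, held 9 TPM of Gad2.

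In Onset neurons, none of the 4 genes was detected in 26 of 41, Gad2 alone in 7 and Gad1 alone in 3. The 4 Onset neurons with a pair held Gad1 with Gad2 in 2 neurons, Gad2 with Slc6a5 in 1 and Gad1 with Slc6a5 in 1. In Sustained neurons, none was detected in 4 of 11 and Slc6a5 alone in 2. The only neuron with 3 of the genes was a Sustained neuron with 1 TPM of Gad1, 43 TPM of Gad2 and 40 TPM of Slc6a5, and it held no Slc17a6 and no Calca. This library had 6276 detected genes, the most of any library, where the median of Sustained neurons was 2618.

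**Figure D4:**
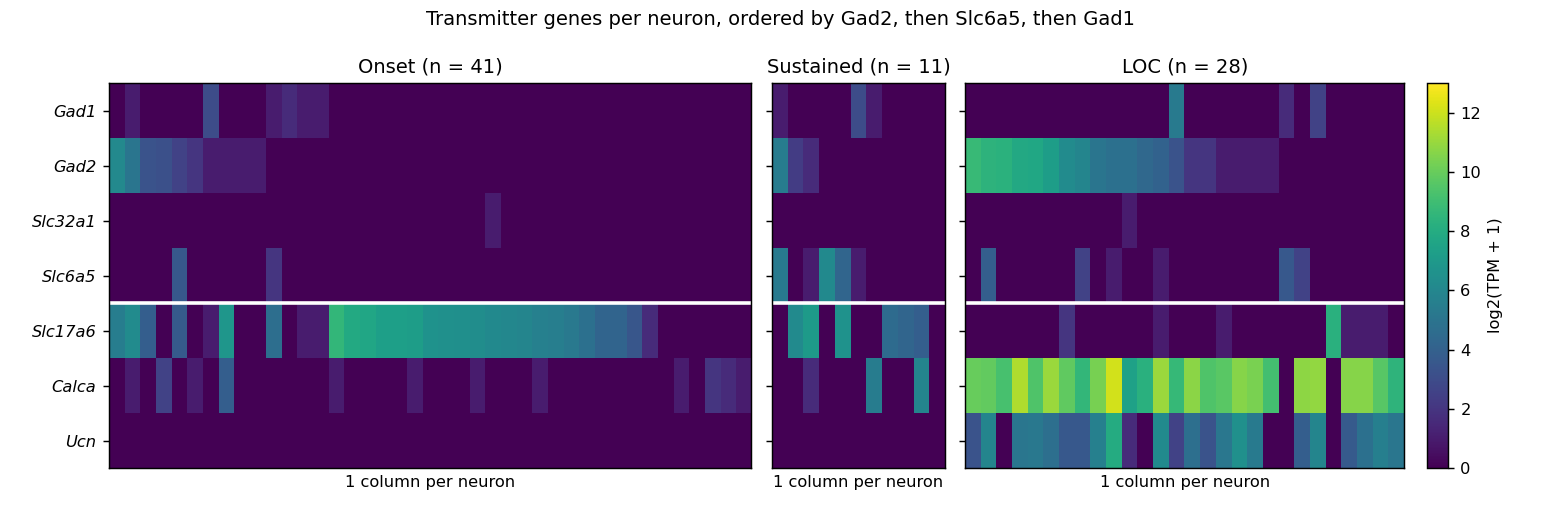
Levels of 7 transmitter genes as log2(TPM + 1) in colour, with 1 column per neuron in 3 panels for 41 Onset neurons, 11 Sustained neurons and 28 LOCs, and columns ordered by Gad2, then Slc6a5, then Gad1. The row of Gad2 is filled in 20 of 28 LOCs, above Calca in every one of these 20, while the row of Slc32a1 is nearly empty in all panels.

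Overlaps between genes were counted beside the share of each gene in all neurons. Gad1 or Gad2 was detected in 41 of 80 neurons, and 40 of these 41 were listed at 0 for Slc32a1, which was itself detected in only 2 of 80 neurons. Gad1 and Gad2 were both detected in 4 neurons, which are 33.3% of the 12 neurons with Gad1 and 12.1% of the 33 with Gad2. In all neurons the share with Gad2 was 41.3% and the share with Gad1 was 15%. Gad2 and Slc6a5 were both detected in 7 neurons, 21.2% of those with Gad2 and 53.8% of the 13 with Slc6a5, where the share with Slc6a5 in all neurons was 16.3%. Since most detected values of Gad1 were between 1 and 7 TPM, a neuron listed at 0 for a gene cannot be taken to lack its transcript.

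The inhibitory genes were set beside those for other transmitters. In LOCs all 20 neurons with Gad2 also held Calca, which 26 of 28 LOCs held, and 17 of the 20 held Ucn, which 23 LOCs held. Gad2 was found together with the choline transporter gene Slc5a7 in 10 of the 15 LOCs that held the latter, with the DOPA decarboxylase gene Ddc in 7 of 9, with the tyrosine hydroxylase gene Th in 4 of 7 and with the acetylcholine-synthesizing Chat in 4 of 5. Across the 28 LOCs, Pearson's r of log2(TPM + 1) between Gad2 and these 6 genes ran from 0.02 for Th to 0.26 for Calca. The points share the depth of their library, and r this low in sparse values is no finding.

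Slc17a6 was detected in 36 of 52 pLSOs and in 3 of 8 negative controls, the latter at 28, 23 and 1 TPM. It was found in 8 of the 13 pLSOs with Gad2, 4 of the 7 with Slc6a5 and 5 of the 9 with Gad1. Among the 3 Sustained neurons of highest Slc6a5, those with 70 and 40 TPM held no Slc17a6, and that with 18 TPM held 99 TPM. The 2 Onset neurons with Slc6a5 held 12 and 25 TPM of Slc17a6, both below the highest control value of 28 TPM. Of the 4 pLSOs with both genes, only the Sustained neuron with 18 TPM of Slc6a5 held both above their highest control values. Its library had 4751 detected genes. Another Sustained neuron held 134 TPM of Slc17a6 with 1 TPM of Slc6a5, which is the highest control value of Slc6a5. Values at or below those of the controls are not read as expression.

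Other genes of GABA and glycine handling were taken as a list of 22, of which 14 passed the filter and 2 were detected in no neuron. For pLSO minus LOC, 2 of the 14 differed by at least 1, against 11.7% of all genes in either direction and 6.99% towards pLSOs, and the median of the list was 0.46. Both were amino acid transporter genes of system A that were higher in pLSOs. Slc38a2|SNAT2 differed by 2.87 and was detected in 46 of 52 pLSOs and 22 of 28 LOCs. Slc38a1|SNAT1 differed by 2.16 and was detected in 43 pLSOs and 17 LOCs. The GABA-degrading transaminase Abat was detected in 7 pLSOs and 8 LOCs (-0.37).

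For Onset minus Sustained, 2 of the 14 differed by at least 1, against 15.1% of all genes in either direction and 10.3% towards Sustained neurons, and the median of the list was -0.29. Both were higher in Sustained neurons. Dld, a subunit of the glycine cleavage system and of several dehydrogenases, differed by -1.67 and was detected in 20 of 41 Onset and 7 of 11 Sustained neurons. Psph, the last enzyme of serine synthesis, differed by -1.21 and was detected in 6 Onset and 4 Sustained neurons.

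Transcription factors of inhibitory lineages formed a list of 15, of which 6 were detected in no neuron and 3 passed the filter. Gata3 and Gata2 differed by at least 1 in favour of LOCs, against 4.68% of all genes, and Pax8 (0.37) did not. The median over these 3 genes, -1.47, is the value of Gata2 itself and is not read as a result about the list. Gata3 was detected in 22 of 28 LOCs and 7 of 52 pLSOs, with a difference of -6.04. The study had reported Gata3 as higher in the LOC cluster of these same neurons and had associated it with LOCs. Its difference is thus no independent result and is not read as a sign of a GABA phenotype. Gata2 was detected in 5 LOCs and no pLSO (-1.47), so it passed the filter through LOCs alone. All 5 LOCs with Gata2 held Gad2. The 6 LOCs with more than 100 TPM of Gad2 held between 384 and 2821 TPM of Gata3, but the highest Gata3 value, 4463 TPM, was found with 1 TPM of Gad2, and r over the 28 LOCs was 0.28.

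By Pearson's r of log2(TPM + 1) over the 80 neurons, the genes most like Gad2 were Ptpn5 (r = 0.60), Synpr (0.55), Qpct (0.55), Uts2b (0.54) and Rab3b (0.54). Each of these was detected in 12 to 18 LOCs and at most 6 pLSOs. Within LOCs r ran from 0.38 to 0.54, and within pLSOs it was at most 0.11. The genes most like Slc6a5 were Rprd1a (0.59), Lpp (0.59), Pcnx2 (0.56), Unc5d (0.55) and Map4k5 (0.54), and they shared at most 5 neurons with it. For Gad1 they were Rhoc (0.56), Gcat (0.54), Abca1 (0.54), Usp25 (0.51) and Pikfyve (0.50), where r was higher within LOCs (0.64 to 0.95), which have 3 neurons with Gad1. Slc32a1 and Slc6a9 had too few positive values for such a comparison.

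The values were last set beside 16 electrophysiological features of the same neurons. For Gad2 in LOCs, Spearman's rho ran from -0.33 with membrane capacitance to 0.34 with the decay of spontaneous inhibitory currents (19 to 28 neurons per feature). For Gad2 in pLSOs it ran from -0.15 to 0.29, for Gad1 from -0.14 to 0.39 and for Slc6a5 from -0.27 to 0.28 (49 to 52 neurons). For Slc6a5 in Sustained neurons it ran from -0.52 with action potential amplitude to 0.62 with the amplitude of spontaneous inhibitory currents (10 to 11 neurons). With 5 positive values among 11 neurons, and with the extremes picked from 16 features, these coefficients are descriptions only.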

How the data were processed

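Patch-pipette cytoplasm of single LSO neurons was amplified with a modified Smart-seq2 protocol and sequenced. The authors trimmed the reads (Trim Galore 0.4.2), aligned them with STAR to mm10, processed them with Picard 1.115 and counted them per gene with featureCounts. The deposited values are scores in the sense that they are TPM rounded by the authors to whole numbers. Their sum per library lies between 999773 and 1000026 TPM. They are not counts, and the deposited table gives no read number per library. Names and positions came from Gencode vM21. The authors' earlier release was not used here.

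Analyses ran in Python 3.11.15 with SciPy 1.17.1, NumPy 2.4.6 and pandas 2.3.3, and plots were drawn with matplotlib 3.10.9. Groups followed the firing pattern label, and 8 libraries (6 neurons and 2 controls) whose label or values disagreed with a supplementary table of the study were left out. Some genes of the lists are not reported here. The members, the lists and this selection were chosen with earlier results of these data known. Named genes are the 5 members, genes of the lists, the 5 genes most alike per member among genes detected in 10% of neurons, and genes that overlap a member. The 2 LOCs without Calca and Ucn were set apart after their values had been seen.

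Detection was 1 TPM or more. The limit for 0 of n neurons is 3 over n. Differences are of mean log2(TPM + 1), with a pseudocount of 1, over genes present in 5% of neurons or more, and differences of 1 or more were counted. Alternatives were thresholds of 5 and 10 TPM, pseudocounts of 0.1 and 10, all libraries by label, neurons with more detected genes than any control, rescaling to the rows after the first 5000, all genes, and leaving out the highest neuron. A threshold at the highest control and the removal of the 2 LOCs were added after seeing the data. The calculation of differences was tested on simulated data.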

Additional observations from a re-analysis of the deposited data

Results flagged for a closer look

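The highest Gad2 value in the 8 negative controls, 28 TPM, stood apart from the other controls, with a gap of 0.536 of the range against a critical value of 0.526. The single positive Slc6a5 value in the controls, 1 TPM, stood apart because the other 7 were at 0. Among whole numbers that are mostly 0, any single positive value is flagged. The usual rate of about 1 in 20 groups flagged by chance does not apply here, and no weight is put on either flag.

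Of the libraries left out, 4 values lay above those of the controls that were kept. A library labelled as an Onset neuron held 207 TPM of Gad2 and 98 TPM of Slc6a5, both higher than in any pLSO that was kept, and no Slc17a6. A library labelled as a Sustained neuron held 106 TPM of Gad2 with 1887 TPM of Calca, and a library labelled as a LOC held 603 TPM of Gad2 with 827 TPM of Calca.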

How the results depend on the processing

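Over 212 recomputed values, 173 moved by less than the interval or spread of the value reported, 39 moved further and 0 changed direction past a difference of 1. All 39 came from a higher detection threshold. At 5 TPM, the share with Gad1 was 2.44% in Onset neurons and 3.85% in pLSOs, and with Gad2 it was 12.2% in Onset neurons, 11.5% in pLSOs and 50% in LOCs. At least 1 of the 4 genes was then found in 14.6% of Onset neurons, 19.2% of pLSOs and 60.7% of LOCs, and at least 2 in 2.44% of Onset neurons and 3.85% of pLSOs. At 10 TPM, Gad1 was at 0% in Onset neurons, Sustained neurons and pLSOs, Gad2 at 4.88% in Onset neurons, 5.77% in pLSOs and 46.4% in LOCs, and Slc6a5 at 7.14% in LOCs. At least 1 gene was then found in 7.32% of Onset neurons, 27.3% of Sustained neurons, 11.5% of pLSOs and 53.6% of LOCs, and at least 2 in 0% of Onset neurons, 1.92% of pLSOs and 3.57% of LOCs. Above the highest control, Gad2 was at 4.88% in Onset neurons, 5.77% in pLSOs and 32.1% in LOCs. Gad2 was more frequent in LOCs than in pLSOs at each of these thresholds. With all libraries grouped by label, the difference for Gad2 was -2.58 for pLSO minus LOC and that for Slc6a5 was -1.20 for Onset minus Sustained, while the small difference of Slc6a5 for pLSO minus LOC went from -0.07 to 0.05. The means without the highest neuron ran from 0.15 (Onset) to 0.259 TPM (LOC) for Gad1, 0.6 (Sustained) to 56.5 TPM (LOC) for Gad2 and 0.075 (Onset) to 6 TPM (Sustained) for Slc6a5. No paired analysis was possible because replicate numbers only name neurons and no result comes from a test. The lack of read numbers per library, the rounding to whole TPM and the missing animal labels limit all values.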
